A study of Saccharomyces cerevisiae with 8 samples.

Results

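The genes described here are those whose only array symbol begins with RAD, MSH, MLH, PMS, REV, MMS, APN, NTG, OGG, MAG, PHR, DUN, HUG, MEC, TEL, DIN, DDI, MRE or XRS and ends in a number, which are names that yeast genetics gave mostly to DNA repair and damage checkpoint genes. The rule found 32 of the 3127 named genes, measured by 34 of the 6912 array features, and it used no measured value. MMS2 and REV1 had 2 features each and the other members 1. In budding yeast (Saccharomyces cerevisiae), the study compared yap1d, a deletion of the YAP1 gene, with wild type (WT) in the laboratory strain backgrounds BY4742 (mating type alpha) and BY4741 (mating type a). All cultures, WT included, received 200 mM hydroxyurea for 2 h once growth in YPD had reached an optical density of 0.5, so no value here measures the response to the drug itself. Total RNA of yap1d and WT from 1 background was hybridised together on a slide, and each background had 2 slides with the channels exchanged: yap1d was in channel 1 on slide 21 and in channel 2 on slide 22 for BY4742, and in channel 1 on slide 19 and in channel 2 on slide 20 for BY4741. Separate cultures behind the paired slides of a background are not stated in the labels, so p-values measure the spread between slides, which may be technical. YAP1 itself was not analysed here, which leaves the deletion unchecked, and a ratio of genotypes within a background does not test the background's own markers.

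Hydroxyurea inhibits ribonucleotide reductase, and the lack of deoxynucleotides stalls replication forks. The kinase Mec1 senses stalled forks and activates Rad53 and then Dun1, which raise nucleotide supply and hold the cell cycle, while repair and bypass pathways deal with broken or damaged DNA. Yap1 is a transcription factor of the oxidative stress response, and reactive oxygen species damage DNA bases, lesions that base excision repair removes.

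None of the 32 genes differed between yap1d and WT in hydroxyurea at an adjusted p under 0.05. Values are log2 ratios of yap1d over WT, assuming that the deposited ratios are in base 2. The sign of every ratio is likely but not certain. It rests on a choice made with the values in view, by which TRX2 (-1.57 ± 0.393, SD over the 2 backgrounds) and TRR1 (-0.998 ± 0.00265), both known Yap1 targets, are lower in yap1d, and all signs turn if that choice is wrong. With limma on the 4 slides, 0 of the 32 genes passed, against 1.54% of all named genes (37 lower and 11 higher in yap1d). At an unadjusted p under 0.05 there were 2 members, PHR1 and DUN1, which is 6.25% of the members beside 10.3% of all genes. The fit on the 2 background means, which called 2.11% of all genes, also called 0 members. The members' means ran from -0.18 (DUN1) to 0.25 (PHR1) with a median of 0.018, and the median over all named genes was -0.010. Means above 0 made up 18 of the 32, or 56.2%, beside 45.6% of all named genes. When the columns were scaled to 1 spread, APN2, RAD5, RAD28 and RAD50 fell below 0 and RAD27 rose above it. The members' median was then -0.0026, beside -0.0060 over all named genes. No test was made of the share above 0 or of the counts by role.

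The data limit how large a difference could have been missed in the RNA on these 4 slides. The standard errors of the members' means were 0.077 to 0.112. The 95% interval of every one of the 32 means lay within a 1.5-fold difference either way, as did those of 97.9% of all named genes. The highest upper bound was 1.35-fold higher in yap1d, for PHR1, and the bound furthest below was 1.27-fold lower, for DUN1. These intervals are for single genes, rest on 4 slides and share the base 2 assumption. Each variance combines the gene's own spread between slides (2 residual degrees of freedom) with a prior pooled over all features and genes tested (8.73 degrees of freedom). The intervals thus measure a spread between slides that is mostly pooled and may be technical. Since separate cultures are not stated, the spread between cultures may not be in them, and they do not bound a difference across cultures. The smallest mean that passed the test in any named gene was 0.41 in size.

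**Figure D1:**
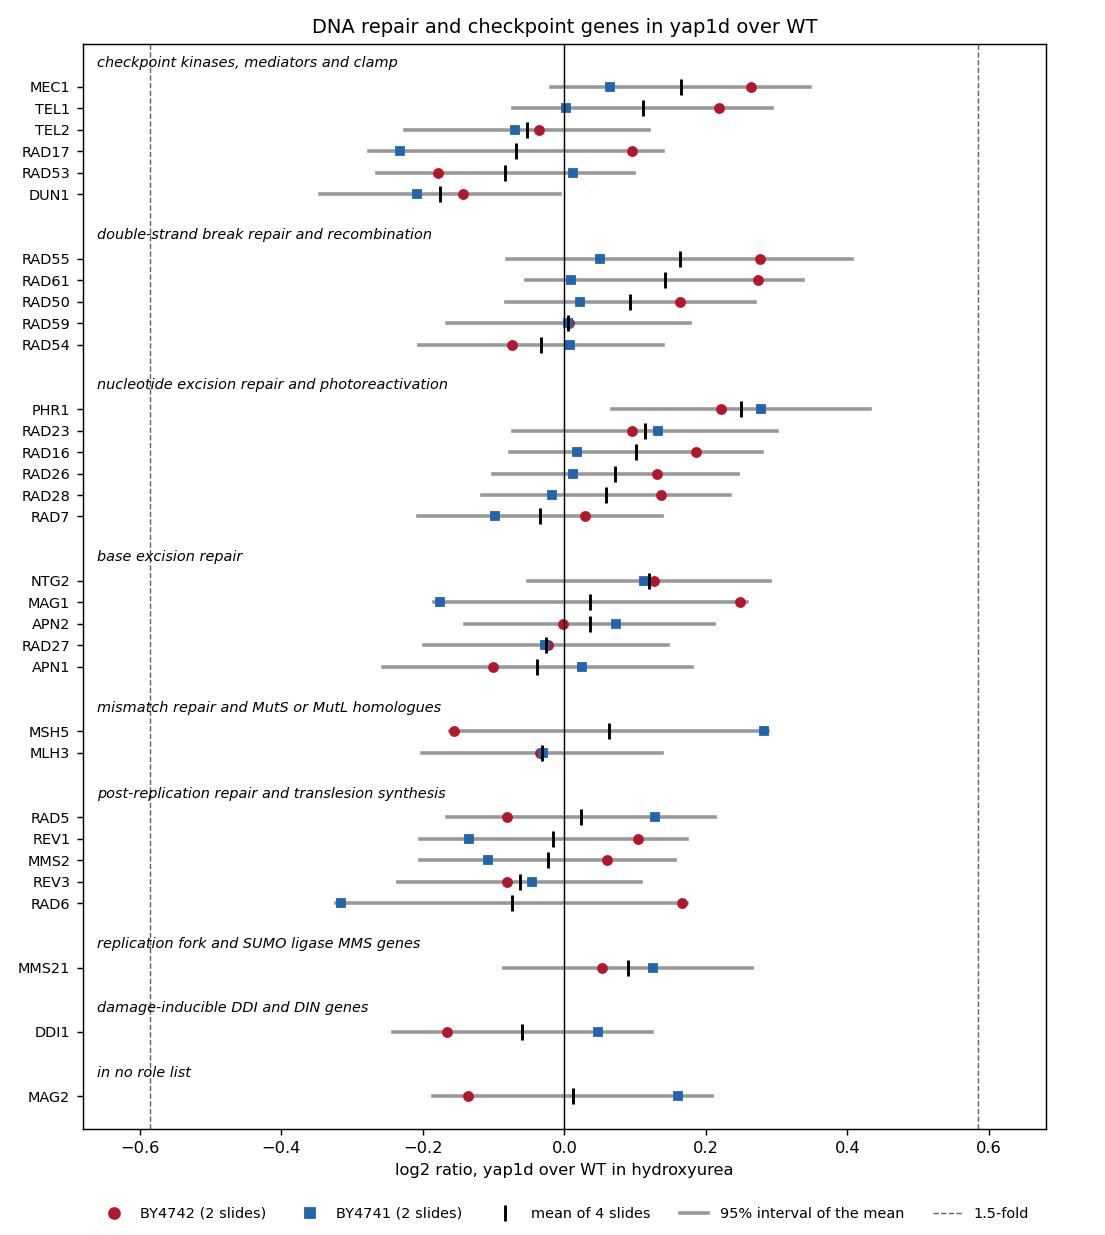
Log2 ratio of yap1d over WT in hydroxyurea for each of the 32 genes, grouped by role, as the mean of 4 slides (bar) with its 95% interval (grey line) and the value in BY4742 (circle) and BY4741 (square), 2 slides each. All intervals lie inside the dashed lines at 1.5-fold, and those of PHR1 and DUN1 do not reach 0 before adjustment for the number of features tested.

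Among the 6 measured checkpoint genes none passed, 2 had means above 0 and 4 below. DUN1, the kinase downstream of Rad53 that relieves inhibition of ribonucleotide reductase, was at 0.54 and -0.83 on slides 21 and 22 (BY4742) and at 0.54 and -0.96 on slides 19 and 20 (BY4741). Its sign thus followed the channel on every slide, and what both backgrounds share is that the negative slide lay further from 0 than the positive one. The mean was -0.18 ± 0.045 (SD, n = 2 backgrounds; adjusted p = 0.498), with -0.14 in BY4742 and -0.21 in BY4741. After the 8 columns were scaled to 1 spread the mean of DUN1 was -0.10, and print block 44, which holds its feature, had medians of 0.40 and -0.46 on slides 21 and 22 and of 0.35 and -0.54 on slides 19 and 20. With block medians removed DUN1 was at -0.11 (adjusted p = 0.528). MEC1, the sensor kinase related to human ATR, had the second highest mean of all members, 0.16 ± 0.141 (adjusted p = 0.583). Its slide values were -0.14 and 0.67 in BY4742 and -0.45 and 0.58 in BY4741, so that both signs occurred in each background. TEL1, the related kinase that responds to DNA ends, was at -0.75 and 1.19 in BY4742 and at -1.02 and 1.02 in BY4741, with a mean of 0.11 ± 0.153 (adjusted p = 0.771). In BY4741 the 2 slides cancelled almost exactly, and the mean of TEL1 came almost wholly from BY4742. This depended on the processing: TEL1 was at 0.10 in BY4742 and 0.12 in BY4741 with block medians removed. RAD53, the effector kinase of the pathway, was at -0.53 and 0.17 in BY4742 and at -0.44 and 0.47 in BY4741. Its mean was -0.083 ± 0.135 (adjusted p = 0.839), again with both signs in each background. RAD17, a subunit of the sliding clamp that marks damage, was at -0.068 ± 0.232, and TEL2, which keeps Mec1 and Tel1 stable, at -0.053 ± 0.0239.

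For homologous recombination and chromatid cohesion, 4 of 5 members had means above 0 and none passed. These 4 were above 0 in both backgrounds as well, with a role median of 0.16 in BY4742 and 0.010 in BY4741. Their BY4741 values were small, from 0.005 to 0.050. With columns scaled to 1 spread, RAD50 was at -0.046 and RAD61 at -0.0035 in BY4741. With block medians removed RAD61 was at -0.049 in BY4741, and RAD50 was above 0 in both. RAD55 and RAD59 stayed above 0 in both backgrounds in either setting. RAD55, which acts in recombinational repair, had a mean of 0.16 ± 0.160 (adjusted p = 0.741). It was at 0.65 and -0.10 in BY4742 and at -0.050 and 0.15 in BY4741, and without slide 21 its mean was -0.013. As analysed, that single slide held the highest of its values and set its sign. With block medians removed RAD55 was at 0.23 (adjusted p = 0.432), with 0.30 in BY4742 and 0.15 in BY4741. RAD61, whose product releases cohesin from chromosomes, was at 0.22 and 0.33 in BY4742 and at -0.20 and 0.22 in BY4741, with a mean of 0.14 ± 0.187 (adjusted p = 0.698). Both BY4742 slides of RAD61 were above 0, while the BY4741 slides had opposite signs. Its mean was 0.038 without slide 21 and 0.25 without slide 19. RAD50, of the complex that binds and processes broken ends, had -0.75 and 1.08 in BY4742 and -0.99 and 1.03 in BY4741. Its mean of 0.093 ± 0.0999 was -0.0056 once the columns were scaled to 1 spread and 0.15 with block medians removed. RAD59, a partner of Rad52 in annealing, was at 0.0056 ± 0.000884, and RAD54, a DNA translocase of recombination, was at -0.033 ± 0.0575.

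PHR1, the photolyase that reverses ultraviolet damage with light, had the highest mean of the 32 genes, 0.25 ± 0.040 (adjusted p = 0.310), at percentile 97.4 of all named genes. Its slide values were -0.15 and 0.60 in BY4742 and 0.12 and 0.44 in BY4741. Of the 4 values 3 were above 0, and the backgrounds were close, at 0.22 in BY4742 and 0.28 in BY4741. The feature of PHR1 lies in print block 7, whose median over all its features was 0.16, the fourth highest of 48 blocks, with 0.51 on slide 22 and 0.020 to 0.053 on the others. After the block medians were removed PHR1 was at 0.090 (adjusted p = 0.721). Its backgrounds then had opposite signs, with -0.045 in BY4742 and 0.225 in BY4741. The same block holds RAD16, a nucleotide excision repair factor that acts on untranscribed DNA, with slide values of -0.71 and 1.08 in BY4742 and -0.96 and 0.99 in BY4741. Its mean was 0.10 ± 0.119 (adjusted p = 0.784), and -0.058 with block medians removed, so the sign of RAD16 depended on that step. RAD7, the partner of Rad16, was at -0.034 ± 0.0893. RAD23, which binds damaged DNA with Rad4 and also carries ubiquitinated proteins to the proteasome, was at 0.36 and -0.17 in BY4742 and at 0.64 and -0.38 in BY4741, with a mean of 0.11 ± 0.0256 (adjusted p = 0.768). RAD26 and RAD28, related to the human transcription-coupled repair genes CSB and CSA, were at 0.072 ± 0.0840 and 0.059 ± 0.109, and at 0.11 and 0.12 with block medians removed. Over the 32 genes, removing block medians put 13 means further from 0 and 19 closer to it. In all, 5 of these 6 genes had means above 0 and none passed.

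The base excision repair genes, which act on oxidised and alkylated bases, did not pass either and spread around 0, with 3 of 5 above it. NTG2, a glycosylase for oxidised pyrimidines, was at 0.41 and -0.16 in BY4742 and at 0.28 and -0.055 in BY4741. Its mean of 0.12 ± 0.00972 (adjusted p = 0.718) was nearly equal in both backgrounds, 0.13 in BY4742 and 0.11 in BY4741. Once block medians were removed the mean was 0.036 and the backgrounds had opposite signs, -0.090 in BY4742 and 0.16 in BY4741. The AP endonuclease genes APN2 and APN1, whose products cut at sites that have lost a base, were at 0.036 ± 0.0521 and -0.038 ± 0.0893. RAD27, the flap endonuclease, was at -0.026 ± 0.00265. MAG1, the glycosylase for 3-methyladenine, was at 0.037 ± 0.300 with opposite signs in the backgrounds. MAG1 is the neighbour of DDI1 in the reference annotation, and APN1 that of RAD27. DDI1, which encodes a ubiquitin-binding protease of the proteasome pathway, was at -0.059 ± 0.151, with -0.17 in BY4742 and 0.048 in BY4741, where MAG1 had 0.25 in BY4742 and -0.18 in BY4741.

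Genes for damage tolerance, which let replication pass a lesion, did not pass either. RAD6, the ubiquitin-conjugating enzyme that marks the sliding clamp PCNA, was at -0.074 ± 0.340. RAD5 and MMS2, which extend that mark, were at 0.023 ± 0.148 and -0.024 ± 0.118, and REV1 and REV3, of translesion DNA synthesis, were at -0.016 ± 0.169 and -0.063 ± 0.0256. Of these 5 genes 1 had a mean above 0. The 2 features of REV1 had means of -0.014 and -0.017 but differed on single slides. On slide 20 the feature in print block 13 read 0.27 and 0.35 in the faible and fort scans. The one in block 15, which had 1 deposited column at 0, read -0.32 and -0.43. The 2 features of MMS2 had means of -0.062 and 0.014 and differed on single slides as well. On slide 21 the feature in print block 42 read -0.20 and -0.38 in the faible and fort scans, and the one in block 44 read 0.65 and 0.76. Their average therefore hides 2 features with opposite channel effects. MMS21, the SUMO ligase of the Smc5-Smc6 complex, was at 0.028 and 0.080 in BY4742 and at -0.045 and 0.30 in BY4741, with a mean of 0.089 ± 0.0504 (adjusted p = 0.815), and at 0.17 (adjusted p = 0.390) with block medians removed. MLH3 and MSH5, mismatch repair homologues that act in meiotic crossing over, were at -0.032 ± 0.00265 and 0.063 ± 0.310, and MAG2 was at 0.012 ± 0.209.

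The second comparison set the yap1d effect of one background against that of the other. No member and 0% of all genes passed with limma on the 4 slides. At an unadjusted p under 0.05 there were 4 members, or 12.5%, beside 12.6% of all named genes, so the members did not stand out from this background. The RAD6 value in BY4742 less that in BY4741 was 0.48 ± 0.157 (SE, 4 slides; adjusted p = 0.336), the difference furthest from 0 among members, with 0.023 and 0.31 on the BY4742 slides and -0.72 and 0.085 on the BY4741 slides. Slide 19 alone gave the low BY4741 value of RAD6. Its feature lies in print block 18, whose median on slide 19 was -0.575. With block medians removed RAD6 was at 0.054 in BY4742 and -0.185 in BY4741. MSH5 was at -0.22 and -0.095 in BY4742 and at 0.14 and 0.43 in BY4741, a difference of -0.44 ± 0.133 (SE; adjusted p = 0.329). MAG1 was at -0.13 and 0.63 in BY4742 and at -0.47 and 0.12 in BY4741, a difference of 0.42 ± 0.133 (SE; adjusted p = 0.330), and RAD17 was at 0.13 and 0.065 in BY4742 and at -0.37 and -0.10 in BY4741, a difference of 0.33 ± 0.142 (SE; adjusted p = 0.427). With block medians removed, MSH5 was at 0.021 in BY4742 and 0.22 in BY4741, the same sign. In that setting MAG1 was at 0.033 in BY4742 and -0.125 in BY4741, and RAD17 at 0.12 and -0.12. As analysed, the slides of the 2 backgrounds did not overlap in 3 members, MSH5, RAD17 and RAD61. These are 9.38% of the members, beside 12.1% of all named genes. In both backgrounds 12 members (37.5%) were above 0, beside 23.6% of all named genes, and 5 (15.6%) were below 0, beside 25.7%. With the columns scaled to 1 spread, RAD16, RAD26, RAD50, RAD61 and TEL1, of these 12, were below 0 in BY4741. RAD27 was then above 0 in both backgrounds, and RAD53 below 0 in both. The shares of all named genes after scaling are not given here. No test was made of any of these shares. Across the 32 genes the values of the backgrounds correlated at r = -0.109, and across all named genes at r = 0.323, where genes share slides and are not independent.

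**Figure D2:**
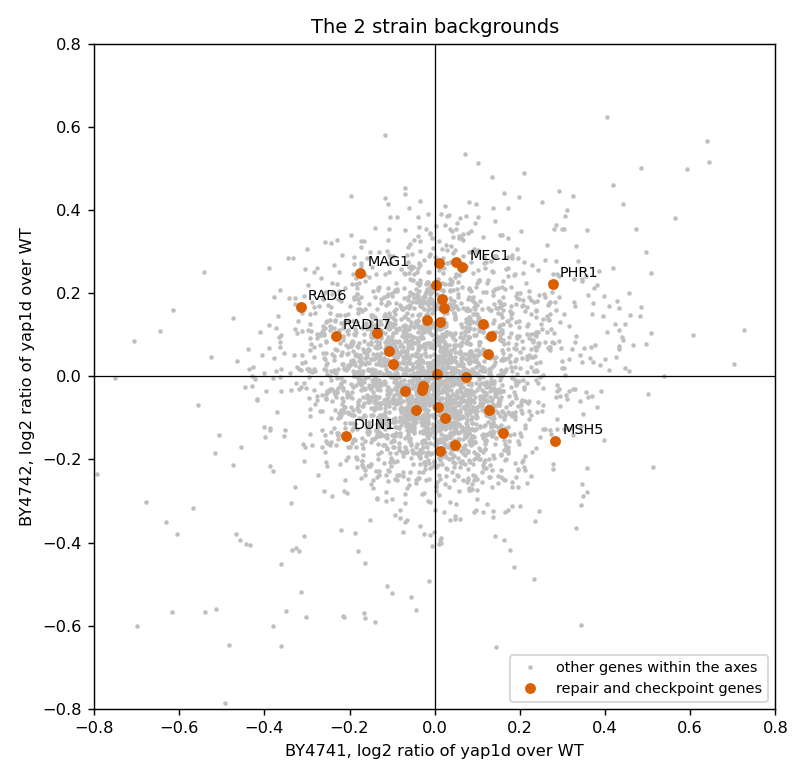
Log2 ratio of yap1d over WT in BY4742 (vertical) and BY4741 (horizontal) for the 32 repair and checkpoint genes (orange) and the other named genes (grey); 21 genes lie outside the axes, which end at 0.8. The members lie inside the cloud of other genes, with PHR1 above 0 and DUN1 below 0 in both backgrounds and RAD6, MAG1, RAD17 and MSH5 of opposite sign in the 2 backgrounds.

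On single slides the channel moved most values further than the genotype did. The channel effect is the mean of the centred ratios over both orientations, before they were turned. It was larger in size than the yap1d effect in 29 of the 32 genes (90.6%), beside 84.3% of all named genes. The channel effect passed an adjusted p of 0.05 in 19 of the 32 (59.4%), beside 62.8% of all named genes. Before the ratios were turned, any pair of slides correlated at r = 0.815 to 0.888 across the 32 genes and at 0.761 to 0.862 across all features and genes tested, whichever genotype was in channel 1. The channel effect ran from -0.99 for TEL1 to 0.71 for DUN1. After TEL1, the most negative were RAD50 (-0.96), RAD16 (-0.93) and RAD28 (-0.85). No member had the same sign on all 4 slides, which 4.86% of all named genes had.

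**Figure D3:**
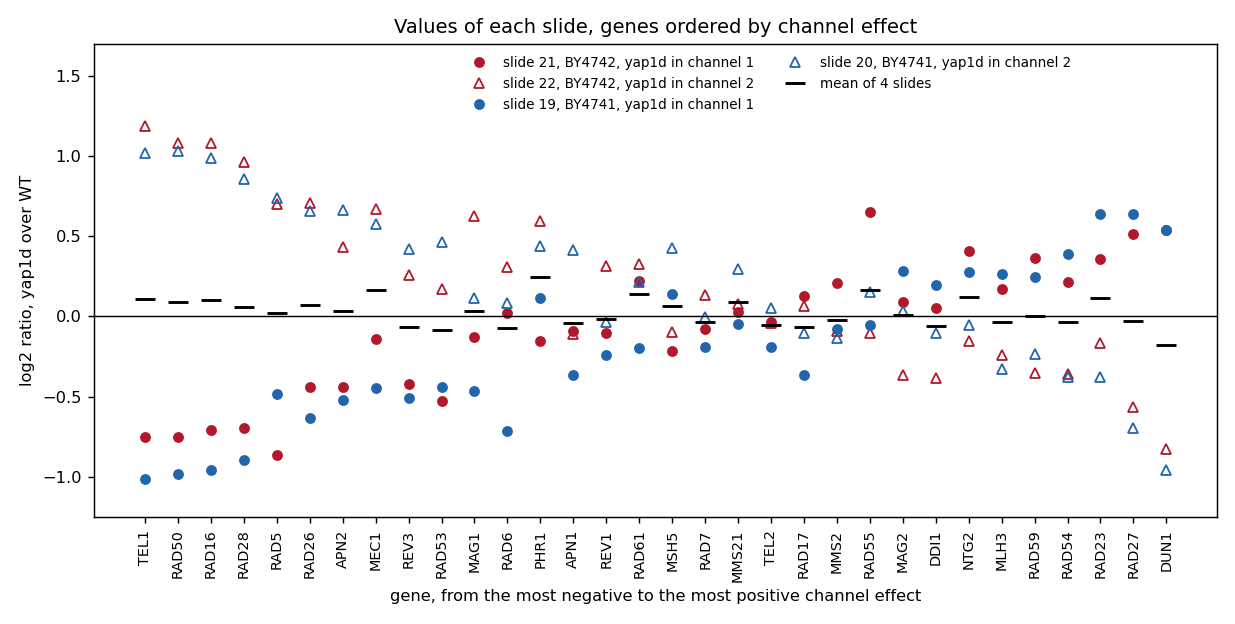
Log2 ratio of yap1d over WT on each of the 4 slides for the 32 genes, ordered by channel effect; circles are slides with yap1d in channel 1, triangles those with yap1d in channel 2, red is BY4742 and blue BY4741, and black bars are means. At both ends, from TEL1 to RAD28 and at RAD27 and DUN1, circles and triangles lie on opposite sides of 0 and the means lie near it.

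After averaging over both orientations, some relation to the channel effect remained. Both values are computed from the same slides, so paired slides of unequal spread correlate them by arithmetic. Scaling the columns to 1 spread acts on that part directly, so the correlations before and after it are a description and not a test. The spread of the ratios was lower on slide 21 than on slide 22 of BY4742 (SD 0.485 and 0.638 in the fort scans). Across the 32 genes the channel effect correlated with the BY4742 value at r = -0.381 and with the BY4741 value at r = -0.0813, and across all named genes at -0.285 and -0.163. With the columns scaled to 1 spread the members' correlations were 0.0749 in BY4742 and 0.165 in BY4741, and those of all named genes were 0.0419 and 0.0193. TEL1 was then at 0.088 in BY4742, against 0.22 before, RAD16 at 0.064 against 0.19, RAD50 at 0.035 against 0.16, and RAD28 at 0.019 against 0.14. The median of all 32 means was -0.0026 after scaling. In BY4741 the same step put TEL1 at -0.064, against 0.0025 before, RAD16 at -0.049 against 0.018, RAD50 at -0.046 against 0.023, and RAD28 at -0.070 against -0.018. After scaling, the 4 genes with the most negative channel effects were thus closer to 0 in BY4742 and further from 0, on the negative side, in BY4741.

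**Figure D4:**
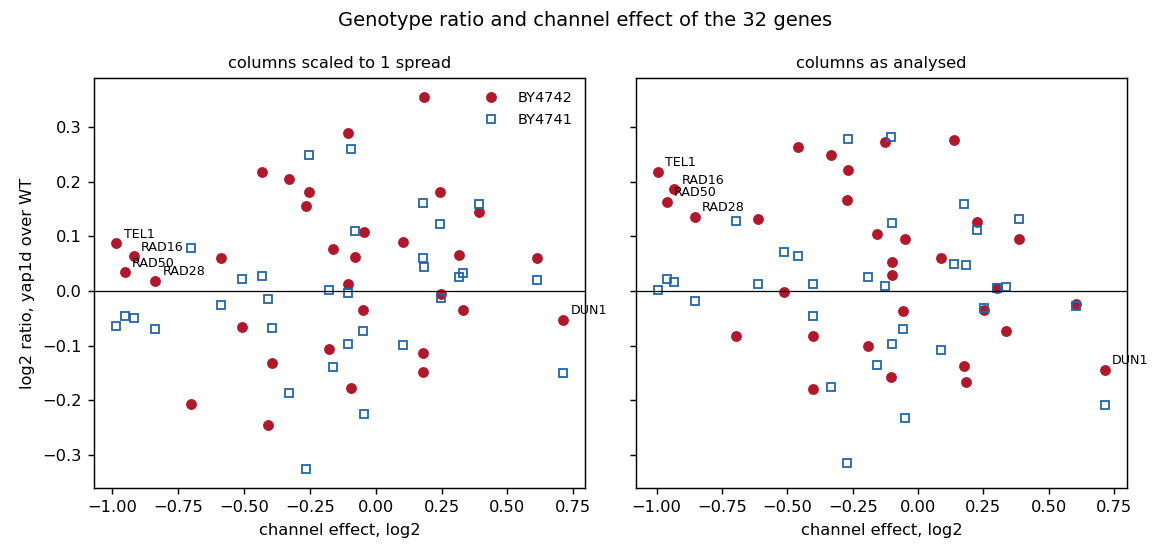
Log2 ratio of yap1d over WT in BY4742 (filled circles) and BY4741 (open squares) against the channel effect of the 32 genes, with the columns scaled to 1 spread (left) and as analysed (right). TEL1, RAD16, RAD50 and RAD28 lie between 0.14 and 0.22 in BY4742 on the right and between 0.019 and 0.088 on the left, and in BY4741 between -0.018 and 0.023 on the right and between -0.070 and -0.046 on the left.

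No member passed in any other setting. PHR1 ranged from 0.090 to 0.32 and DUN1 from -0.21 to -0.10 over 12 settings, with lowest adjusted p of 0.128 and 0.351. MEC1 ranged from 0.089 to 0.24. Their signs held in all 12 settings, as did those of 11 of the 32 genes in all.

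**Figure D5:**
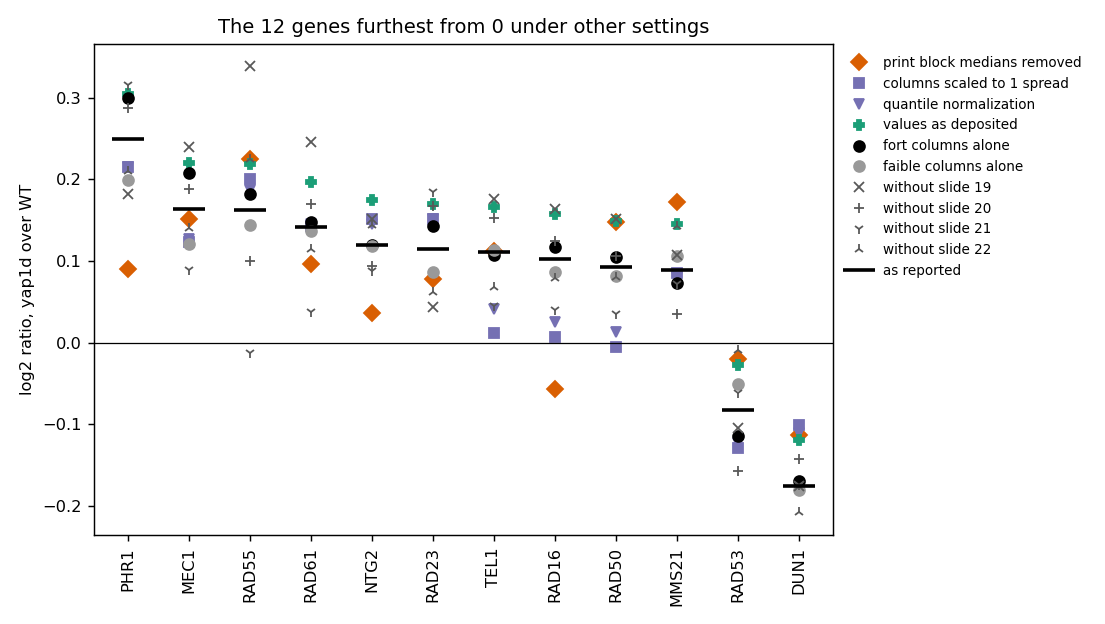
Log2 ratio of yap1d over WT for the 12 genes with the largest means in size under 10 other settings, with the reported mean as a black bar. PHR1 lies between 0.090 and 0.32 and DUN1 between -0.21 and -0.10, while RAD16, RAD50 and RAD55 each cross 0 in 1 setting.

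Other genes of these pathways were read from 4 lists, of which 46 genes were measured. None passed in either fit, and the values ran from -0.15 to 0.28 with a median of 0.034. Means above 0 were found in 28 of the 46, where 45.6% of all named genes had them, and no test was made of this count. Of 12 measured checkpoint genes, WTM1, which retains the small subunits of ribonucleotide reductase in the nucleus, was at 0.21 ± 0.116 (adjusted p = 0.394), and DDC1, a partner of Rad17 in the damage clamp, was at 0.16 ± 0.0415 (adjusted p = 0.544). The reductase subunit genes RNR2 and RNR4 were at 0.078 ± 0.201 and -0.016 ± 0.128. Among 19 recombination and end joining genes, DNL4, the DNA ligase of end joining, was at 0.21 ± 0.105 (adjusted p = 0.445) and NSE1, of the Smc5-Smc6 complex, at -0.15 ± 0.0769 (adjusted p = 0.618). Among 13 excision and bypass genes, TPP1, a phosphatase that cleans broken DNA ends, was at 0.28 ± 0.103 (adjusted p = 0.271) and KIN28, the kinase of the general transcription factor TFIIH, at 0.15 ± 0.517 (adjusted p = 0.823). The opposite values of KIN28, -0.22 in BY4742 and 0.51 in BY4741, make up its large SD.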

How the data were processed

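RNA of yap1d and WT yeast in hydroxyurea was hybridised to 2-colour spotted slides after indirect labelling, per the labels. The authors deposited 1 table of log ratios of 6912 features in 8 columns (fort and faible scans of 4 slides), treated here as log2. The channel on top, the logarithm's base, background correction and normalization are not given in the sources used here. Of the features, 3344 had 1 gene symbol in the array annotation (3343 matched by gene identifier to the R64 reference table), 387 several and 3181 none.

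Columns were centred on their medians, scans of a slide averaged, and features of a gene averaged, giving 6695 units. limma 3.58.1 in R 4.3.3 (lmFit, eBayes) fitted the 4 slides with terms for channel and yap1d (2 residual degrees of freedom, prior 8.73), and a further term for the difference between backgrounds. Tests were two-sided, with Benjamini-Hochberg adjustment over all units. The fit on 2 background means was an alternative, with an infinite variance prior. In earlier use on these data it called units in simulated data with no change, so it was not the main fit. The functions were tested on simulated data. A planned promoter motif search was not run, since no promoter sequence was used here. The number of arrays limits the precision.

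The members and gene lists were chosen with earlier results of these data known. All 32 members are named. Those called by a fit and the 12 with the largest means get slide values, as do, after their values were seen, the 4 with the largest background differences. Of the other genes, the 2 largest of each list are named. Alternatives changed the scan, centring, scaling, print block, feature averaging, filter, prior, threshold and slides. Figures were drawn with matplotlib 3.10.9.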

Additional observations from a re-analysis of the deposited data

Results flagged for a closer look

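MMS2 on slide 21 was at 0.21, far from its other 3 slides, which lay between -0.14 and -0.080. The gap between this slide and the nearest of the others was 0.839 of the whole range, above the 95% critical value for 4 slides. Chance alone puts about 1 in 20 groups beyond that value, and 32 genes were examined. The 2 features of MMS2 disagreed on this slide, and their part in the gap was not tested.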

How the results depend on the processing

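The count of members called stayed at 0 in all 15 alternatives fitted: either scan alone, values as deposited, scaled columns, quantile normalization, print block medians removed, the first feature of each gene, features at 0 left out, each slide left out, the fit on background means, a robust prior and an adjusted p under 0.1. No member differed between backgrounds in any of the first 8 of these. The median of the members was 0.073 with values as deposited, where the median of all named genes was 0.046, and lay within the spread between backgrounds under the others; without 1 slide it ran from 0.0038 to 0.046. Channel effects passed in 21 members with fort columns alone and 19 with faible columns alone. They passed in 15 members with print block medians removed, a setting added after seeing the data. In that setting channel effects passed in 59.2% of all named genes. As analysed, they passed in 19 members and in 62.8% of all named genes. The shares of all named genes with fort or faible columns alone are not given here. For the 12 members furthest from 0, over the 11 settings that can move such a mean, 129 of 132 values kept their sign and 3 did not. RAD50 was at -0.0056 with scaled columns and RAD16 at -0.058 with block medians removed. RAD55 ran from -0.013 without slide 21 to 0.34 without slide 19. The causes were not tested beyond what each step changes. Background as a random block could not be fitted: no correlation was estimated, and the cause was not tested. Replicate numbers are slide numbers and pair nothing.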

Other observations

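The rule also matched 4 features that carry several gene symbols, which were left out of the members. A feature shared by SML1, the inhibitor of ribonucleotide reductase, and HUG1, a small damage-induced inhibitor of the same enzyme, was at 0.054 in BY4742 and -0.20 in BY4741, with a mean of -0.073 ± 0.179 (SD, n = 2 backgrounds; adjusted p = 0.855). The 2 features shared by the near-identical genes DDI2 and DDI3 were at 0.21 ± 0.0433 (adjusted p = 0.391) and 0.096 ± 0.0186 (adjusted p = 0.791), above 0 in both backgrounds. A feature shared by MLH2 and 4 other symbols was at 0.043 ± 0.0239 (adjusted p = 0.919).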
